A study of Mus musculus with 15 samples.

Results

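Interleukin-2 (IL-2), the chains of its receptor and the genes that damp its signal were followed in mouse T helper cell cultures that had been activated in different ways. The 8 genes are Il2, which encodes the cytokine, Il2ra, Il2rb and Il2rg, which encode the alpha, beta and gamma chains of its receptor, and Cish, Socs1, Socs2 and Socs3, which encode feedback inhibitors. They were chosen by gene symbol, for what they are known to do, with earlier results of these data known. In the annotation used here 7 of the 8 were paired with a probe set, 16 probe sets in all, and these 7 were among the 15498 genes tested of 18194 on the array, so Il2rg was not analysed here. Each gene is described by 1 probe set, that of the highest average over the 15 arrays, and the other probe sets are given where they disagree.

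The samples fell into 9 groups, made of Th1, Th9 and Th17 cultures under each of 3 conditions called PBAB, HA and APC alone, and RNA was taken at day 4. The PBAB and HA cultures started from naive CD4 T cells of the 3A9 strain. Their transgenic T cell receptor is specific for hen egg lysozyme (HEL), and they were sorted with 1G12, an antibody that recognises this receptor. PBAB stands for antibodies bound to the plate, 10 µg/ml of anti-CD28 with 1 µg/ml of anti-CD3. HA stands for HEL, at 1 µg/ml in Th9 and 2 µg/ml in Th1 and Th17 cultures, shown to the T cells by splenocytes of syngeneic wild type mice that had been irradiated with 30 Gy and served as antigen-presenting cells (APC). The HA cultures thus started with cells other than the sorted T cells, and antigen dose differed between lineages. The Th1 cocktail held 10 ng/ml IL-12 and 10 µg/ml anti-IL-4, and the Th9 cocktail 10 ng/ml IL-4 and 1 ng/ml TGF-beta. The Th17 cocktail held TGF-beta, IL-6 and IL-1alpha at 3, 10 and 5 ng/ml, with anti-IFN-gamma, anti-IL-4 and anti-IL-12 at 20, 10 and 10 µg/ml. No cocktail listed IL-2 itself or an antibody against it. PBAB and HA had 2 arrays per lineage. APC alone had 1 array per lineage, and the labels do not say what those samples contained beyond that name.

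IL-2 is made by T cells soon after their receptor is engaged, and it acts on the same cells and their neighbours. The beta and gamma chains of its receptor carry the signal through JAK1 and JAK3 to the transcription factor STAT5, while the alpha chain raises the affinity for IL-2 and is itself induced by STAT5. STAT5 also induces Cish and SOCS genes, whose proteins bind activated receptors or JAK kinases and limit further signalling, and in T helper cells IL-2 is known to favour Th1 differentiation and to restrain Th17 differentiation.

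Levels and differences below are on the log2 scale. A difference is given as the limma estimate ± SE, with n = 2 arrays per group, and a gene is named as called where its Benjamini-Hochberg adjusted p over all 15498 genes was under 0.05. The labels name the replicates biological but do not tie them to animals or cultures, and the p-values cover only the spread between the arrays at hand. Arrays with the same replicate number deviated together, and a second fit with that number as a block is quoted where it changed a call of the 7 genes. A signal below 5.07, the 40th percentile of the table, is not told from background here.

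**Figure D1:**
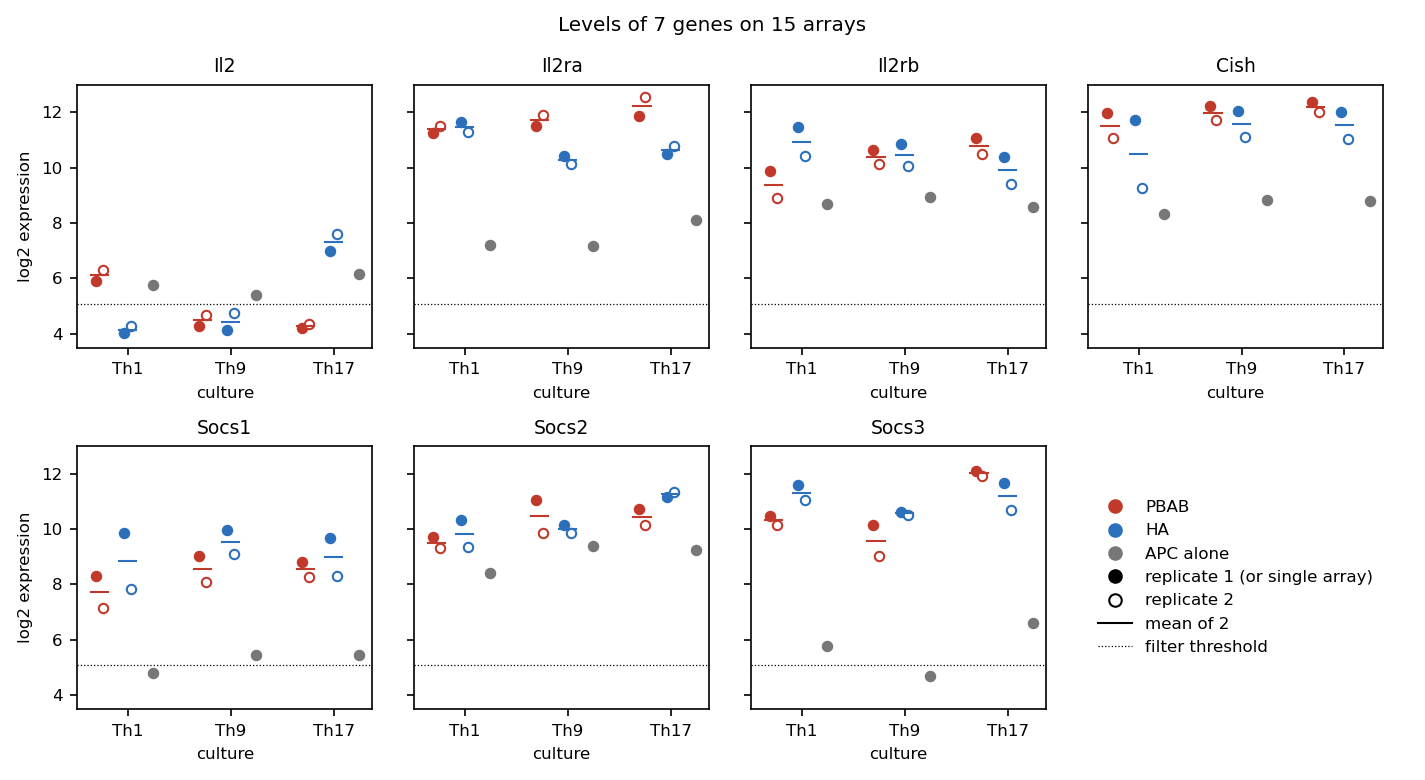
Level of each of the 7 genes on each array (vertical axis, log2 expression), by culture (horizontal axis), for PBAB (red), HA (blue) and APC alone (grey). Filled and open points are replicate numbers 1 and 2, short bars are means of 2 arrays, and the dotted line is the threshold of 5.07. Il2 lies above the threshold in Th1 PBAB, Th17 HA and the 3 arrays of APC alone, while the other 6 genes lie above it on every activated array.

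Il2 was measured above the threshold in 2 of the 6 activated groups, and those were the PBAB arrays of Th1 cultures and the HA arrays of Th17 cultures. In Th1 cultures its levels were 5.90 and 6.31 under PBAB, against 4.02 and 4.28 under HA. In Th9 cultures they were 4.29 and 4.69 under PBAB, against 4.13 and 4.75 under HA. In Th17 cultures they were 4.19 and 4.36 under PBAB, against 7.002 and 7.61 under HA. The arrays of the 2 activations did not overlap in Th1 or Th17 cultures and stood in opposite order there, while in Th9 cultures all 4 arrays lay below the threshold. PBAB minus HA was 1.96 ± 0.27 in Th1 cultures (adjusted p = 0.00115), 0.05 ± 0.27 in Th9 cultures (adjusted p = 0.953) and -3.03 ± 0.27 in Th17 cultures (adjusted p = 0.000154). In these whole-culture samples fewer cells of a type and less RNA per cell cannot be told apart. Since 1 side of each called difference lay below the threshold, the sizes are uncertain and no fold is given. Averaged over the cultures the opposite differences left -0.34 ± 0.16 (adjusted p = 0.140, and 0.00645 with the replicate block).

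The dependence of the Il2 difference on the culture was tested directly. The F test for unequal differences in the 3 cultures gave an adjusted p of 0.000639. PBAB minus HA in Th17 cultures minus that in Th1 cultures was -5.00 ± 0.39 (adjusted p = 0.000314), and minus that in Th9 cultures it was -3.08 ± 0.39 (adjusted p = 0.00611). The value for Th9 minus Th1 was -1.91 ± 0.39 with an adjusted p of 0.0425, and that call was lost, at adjusted p = 0.0714 to 0.160, in 9 of the 12 fits that left out 1 activated array. These comparisons share arrays with each other and with the differences within the cultures.

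Between lineages, Il2 followed the activation. Under PBAB it was lower in Th9 than in Th1 cultures by a log2 difference of -1.62 (adjusted p = 0.0126) and lower in Th17 than in Th1 cultures by -1.84 (adjusted p = 0.00272), and Th17 minus Th9 was -0.22 (adjusted p = 0.823). The first of these calls was lost without Th1 PBAB 2 (adjusted p = 0.122) or without Th9 PBAB 1 (adjusted p = 0.107). Under HA it was higher in Th17 than in Th1 cultures by 3.16 (adjusted p = 6.36e-05) and higher than in Th9 cultures by 2.87 (adjusted p = 0.000258), and Th9 minus Th1 was 0.29 (adjusted p = 0.752). In the order of the 9 group levels Th17 HA came first and overlapped no other group. The single Th17 array of APC alone (6.17) lay within the range of the Th1 PBAB arrays, and the groups below the threshold have no order.

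The Il2 promoter is shown because this gene had the widest range of group means among the 7, at 3.16. The stretch runs from 250 bases before to 50 bases after the start of the gene, from RefSeq on GRCm38.p6, chr3:37125905-37126204, minus strand, 5′ to 3′. Capitals mark the 2 matches to GGAAA, the core of sites for NFAT, a factor activated by T cell receptor signalling, searched on both strands.
Il2: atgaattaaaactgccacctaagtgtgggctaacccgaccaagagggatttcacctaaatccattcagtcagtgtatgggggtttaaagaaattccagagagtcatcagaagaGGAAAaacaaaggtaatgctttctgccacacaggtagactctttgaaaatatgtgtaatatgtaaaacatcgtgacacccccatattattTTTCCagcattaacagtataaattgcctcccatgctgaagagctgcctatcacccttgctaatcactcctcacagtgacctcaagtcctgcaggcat
The matches began at -137 and -47, counted from the first base of the gene as 0. GGAAA is common, and 61.3% of 32851 promoters of the same length hold it. The AP-1 motif TGANTCA, present in 7.81% of these promoters, had no match in the Il2 window.

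Il2ra, the alpha chain, was represented by 2 probe sets that disagreed about the effect of activation. With the probe set used, its levels in Th1 cultures were 11.27 and 11.49 under PBAB, against 11.66 and 11.28 under HA. Th9 cultures had 11.52 and 11.88 under PBAB, against 10.43 and 10.12 under HA. Th17 cultures had 11.87 and 12.55 under PBAB, against 10.48 and 10.77 under HA. By this probe set PBAB arrays lay above HA arrays in Th9 and Th17 cultures, and the arrays of Th1 cultures overlapped. PBAB minus HA was 1.42 ± 0.25 in Th9 (adjusted p = 0.00492), 1.58 ± 0.25 in Th17 (adjusted p = 0.00234) and -0.09 ± 0.25 in Th1 cultures (adjusted p = 0.864).

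With the other probe set, the Th1 levels were 10.00 and 9.09 under PBAB, against 11.88 and 11.39 under HA. Th9 levels were 10.71 and 9.77 under PBAB, against 11.76 and 10.29 under HA. Th17 levels were 11.08 and 10.04 under PBAB, against 11.45 and 10.98 under HA. By this probe set HA was the higher activation in every mean and PBAB the lower in 6 of 6 pairs of the same number, by -2.30 to -0.37, with no overlap in Th1 and overlapping arrays in Th9 and Th17 cultures. PBAB minus HA was -2.09 ± 0.53 in Th1 (adjusted p = 0.0254), -0.79 in Th9 (adjusted p = 0.426) and -0.65 in Th17 cultures (adjusted p = 0.500). The blocked fit called all 3, at adjusted p = 5.18e-05, 0.0190 and 0.0394. Averaged over the cultures the 2 probe sets gave called differences of opposite sign, 0.97 ± 0.15 (adjusted p = 0.000598) for the probe set used and -1.18 ± 0.30 (adjusted p = 0.0137) for the other. The mean of both gave -0.10 (adjusted p = 0.692), so no direction of Il2ra between the activations is given here. What differs between the transcripts that the 2 probe sets capture was not tested.

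**Figure D2:**
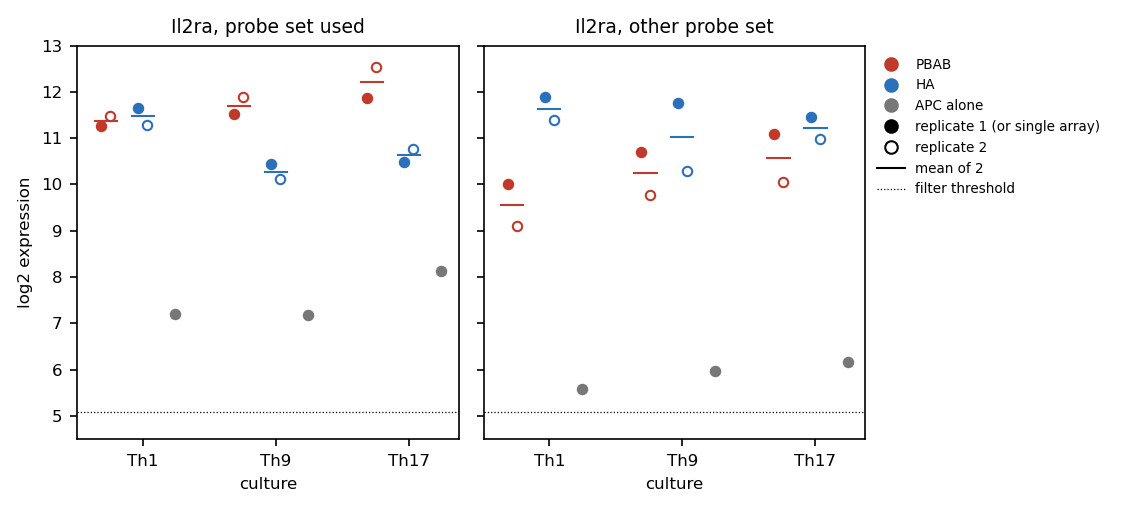
Level of Il2ra on each array (vertical axis, log2 expression), by culture (horizontal axis), for the probe set used (left) and the other probe set (right). Red is PBAB, blue HA and grey APC alone, and short bars are means of 2 arrays. In Th17 cultures the red mean lies above the blue mean on the left (difference 1.58) and below it on the right (difference -0.65).

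For the lineages, the probe set used gave an Il2ra difference of -1.19 ± 0.25 in Th9 minus Th1 cultures under HA (adjusted p = 0.0204), lost without Th1 HA 1, Th9 HA 1 or Th9 HA 2 at adjusted p = 0.0531 to 0.152. It was also lost with the other probe set (-0.61, adjusted p = 0.721) and with the mean of both (-0.90, adjusted p = 0.102). With the replicate block and the probe set used, Th17 minus Th1 was also called, at -0.85 under HA (adjusted p = 0.0811 without and 0.0293 with the block) and 0.83 under PBAB (adjusted p = 0.0843 without and 0.0302 with the block). With the block the other probe set gave -0.42 under HA (adjusted p = 0.247), not called, and 1.02 under PBAB (adjusted p = 0.00786), called. The F test for unequal differences gave adjusted p = 0.0395 for the probe set used and 0.518 for the other, both without the block. PBAB minus HA in Th17 minus that in Th1 cultures was 1.68 ± 0.36 (adjusted p = 0.0326) and lost its call in 6 of the 12 fits that left out an array. The other probe set gave 1.44 (adjusted p = 0.411, and 0.0120 with the block) and the mean of both 1.56 (adjusted p = 0.0544). The same value for Th9 minus Th1 was 1.52 (adjusted p = 0.0773, and 0.0231 with the block).

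Il2rb, the beta chain that IL-2 shares with IL-15, was detected on all 15 arrays. In Th1 cultures its levels were 9.86 and 8.91 under PBAB, against 11.45 and 10.41 under HA. In Th9 cultures they were 10.64 and 10.13 under PBAB, against 10.85 and 10.06 under HA. In Th17 cultures they were 11.08 and 10.48 under PBAB, against 10.39 and 9.40 under HA. PBAB arrays lay below HA arrays in Th1 cultures and above them in Th17 cultures, and the Th9 arrays overlapped. PBAB minus HA was -1.55 ± 0.47 in Th1 (adjusted p = 0.0518), -0.08 ± 0.47 in Th9 and 0.88 ± 0.47 in Th17 cultures (adjusted p = 0.260), none of them called. With the replicate block the Th1 and Th17 differences were called, at adjusted p = 5.65e-05 and 0.00151, and so was the average of -0.25 (adjusted p = 0.572 without and 0.0469 with the block).

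The opposite order of Il2rb in Th1 and Th17 cultures gave a difference of differences of 2.43 ± 0.66 for Th17 minus Th1 (adjusted p = 0.0823, and 0.000173 with the block). For Th9 minus Th1 it was 1.47 (adjusted p = 0.449, and 0.00372 with the block) and for Th17 minus Th9 0.96 (adjusted p = 0.607, and 0.0216 with the block). The block also brought calls between lineages, where Il2rb under PBAB was higher in Th9 than in Th1 cultures by 1.00 (adjusted p = 0.00366) and higher in Th17 than in Th1 cultures by 1.39 (adjusted p = 0.000171). Under HA it was lower in Th17 than in Th1 cultures, with a difference of -1.04 (adjusted p = 0.00114), and lower in Th17 than in Th9 cultures, with -0.56 (adjusted p = 0.0404). Without the block none of these 4 was called (adjusted p = 0.507, 0.117, 0.286 and 0.696). Neighbours in the order of the 6 activated groups all overlapped.

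Cish encodes an SH2 protein that is induced by STAT5 and binds cytokine receptors. In Th1 cultures its levels were 11.98 and 11.05 under PBAB, against 11.72 and 9.27 under HA. Levels in Th9 cultures were 12.23 and 11.72 under PBAB, against 12.05 and 11.09 under HA. Levels in Th17 cultures were 12.37 and 12.00 under PBAB, against 12.02 and 11.05 under HA. Within each replicate number PBAB was the higher in 6 of 6 pairs, by 0.18 to 1.78, although the arrays of the groups overlapped in every culture. The averaged difference of 0.69 ± 0.39 was not called (adjusted p = 0.232) and was called with the replicate block (adjusted p = 0.0236). Th1 HA 2 was the lowest activated array. Without Th1 HA 1 the average was 1.10 and the difference in Th1 cultures was 2.24. Without Th1 HA 2 the average was 0.28 and the Th1 difference -0.20, so without the block the Cish values rest on which of these arrays is kept. In Th1 cultures these fits set the HA array that was kept against PBAB arrays of both numbers, and Cish was lower in replicate 2 (-1.03). Within the numbers the Th1 differences were 0.26 and 1.78.

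Socs1 encodes an inhibitor of JAK kinases that limits signalling by IL-2 and interferon-gamma. In Th1 cultures its levels were 8.31 and 7.15 under PBAB, against 9.85 and 7.84 under HA. In Th9 cultures they were 9.01 and 8.10 under PBAB, against 9.97 and 9.09 under HA. In Th17 cultures they were 8.82 and 8.28 under PBAB, against 9.67 and 8.32 under HA. PBAB was the lower in 6 of 6 pairs of the same number, by -1.54 to -0.04, and the groups overlapped except in Th9 cultures. The averaged difference of -0.84 ± 0.39 was not called (adjusted p = 0.139) and was called with the block (adjusted p = 0.00110). The block also brought calls in Th1 cultures, at -1.12 (adjusted p = 0.335 without and 0.0103 with it), and in Th9 cultures, at -0.97 (adjusted p = 0.453 without and 0.0224 with it). In Th17 cultures the difference was -0.45 (adjusted p = 0.746).

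Socs2, known for restraining growth hormone signalling, was highest in Th17 cultures under HA with the probe set used. In Th1 cultures its levels were 9.72 and 9.31 under PBAB, against 10.33 and 9.34 under HA. Th9 cultures showed 11.04 and 9.87 under PBAB, against 10.14 and 9.87 under HA. Th17 cultures showed 10.74 and 10.14 under PBAB, against 11.16 and 11.35 under HA. With this probe set the Th17 HA arrays overlapped no other group. PBAB minus HA in Th17 cultures was -0.81 (adjusted p = 0.220, and 0.0389 with the block). Under HA, Socs2 in Th17 minus Th1 cultures was 1.42 ± 0.40 (adjusted p = 0.0658, and 0.00445 with the block), and in Th17 minus Th9 cultures 1.25 (adjusted p = 0.131, and 0.0115 with the block). Under PBAB, Th17 minus Th1 was 0.92 (adjusted p = 0.237, and 0.0361 with the block). The 6 probe sets of Socs2 did not agree on PBAB minus HA. With the probe set used the average was -0.23 (adjusted p = 0.537). Of the other 5, 1 gave a called averaged difference of opposite sign, at 0.78 (adjusted p = 0.00679). Its Socs2 difference in Th17 cultures was 0.94 (adjusted p = 0.0651, and 0.00777 with the block). For Th17 minus Th1 and Th17 minus Th9 under HA, the other 5 had the sign of the probe set used. With the block some of these were called, the largest at 1.60 (adjusted p = 0.00536) and 1.25 (adjusted p = 0.0266), and others were not.

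Socs3 encodes the main feedback inhibitor of IL-6 receptor signalling through STAT3. In Th1 cultures its levels were 10.47 and 10.16 under PBAB, against 11.58 and 11.03 under HA. In Th9 cultures they were 10.14 and 9.03 under PBAB, against 10.62 and 10.51 under HA. In Th17 cultures, which were given IL-6, they were 12.11 and 11.92 under PBAB, against 11.67 and 10.70 under HA. By the probe set used, PBAB arrays lay below HA arrays in Th1 and Th9 cultures and above them in Th17 cultures, with no overlap in any culture. The other probe sets gave means in the same order, but by both the arrays overlapped in Th1 and Th17 cultures. In Th9 cultures these probe sets differed on whether the arrays overlapped. PBAB minus HA was -0.99 ± 0.38 in Th1 (adjusted p = 0.118), -0.98 ± 0.38 in Th9 (adjusted p = 0.127) and 0.83 ± 0.38 in Th17 cultures (adjusted p = 0.179). With the replicate block all 3 were called, at adjusted p = 0.00878, 0.00971 and 0.0190, and so was the average of -0.38 (adjusted p = 0.243 without and 0.0415 with the block).

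The difference of differences of Socs3 was 1.82 for Th17 minus Th1 (adjusted p = 0.106, and 0.00604 with the block) and 1.81 for Th17 minus Th9 cultures (adjusted p = 0.124, and 0.00857 with the block). Between lineages under HA, Socs3 in Th17 minus Th1 cultures was -0.12 (adjusted p = 0.951) and in Th17 minus Th9 cultures 0.62 (adjusted p = 0.533). Neither was called with or without the block. Under PBAB, Socs3 was higher in Th17 than in Th9 cultures by 2.43 ± 0.38 (adjusted p = 0.00396) and higher than in Th1 cultures by 1.70 ± 0.38 (adjusted p = 0.0235). The second of these calls was lost when any of its 4 arrays was left out, and with either other probe set (adjusted p = 0.123 and 0.225), and the first was lost with 1 of them (adjusted p = 0.0751). In the order of levels by the probe set used, the Th17 PBAB arrays lay above all others, and Th1 HA and Th17 HA, the next 2 groups, overlapped. By both other probe sets the Th17 PBAB arrays overlapped those of Th17 HA.

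The promoters of Cish and Socs3 are shown because the STAT motif TTCNNNGAA matched in these and in none of the other 4 promoters held for these genes, those of Il2, Il2ra, Il2rg and Socs1. Il2rb and Socs2 had no entry. Both stretches come from RefSeq on GRCm38.p6 and run 5′ to 3′ from 250 bases before to 50 bases after the start in that table, with matches on either strand in capitals. The Cish stretch is chr9:107296409-107296708, plus strand, and the Socs3 stretch is chr11:117969317-117969616, minus strand. The Socs3 gene spans chr11:117966079-117970336, so its stretch lies inside the gene and not before its outermost start.
Cish: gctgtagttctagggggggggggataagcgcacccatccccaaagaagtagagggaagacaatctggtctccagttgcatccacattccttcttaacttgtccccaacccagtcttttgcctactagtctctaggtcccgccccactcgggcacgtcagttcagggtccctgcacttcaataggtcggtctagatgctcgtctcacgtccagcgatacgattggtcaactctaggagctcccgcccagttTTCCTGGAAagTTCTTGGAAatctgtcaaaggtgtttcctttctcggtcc
Socs3: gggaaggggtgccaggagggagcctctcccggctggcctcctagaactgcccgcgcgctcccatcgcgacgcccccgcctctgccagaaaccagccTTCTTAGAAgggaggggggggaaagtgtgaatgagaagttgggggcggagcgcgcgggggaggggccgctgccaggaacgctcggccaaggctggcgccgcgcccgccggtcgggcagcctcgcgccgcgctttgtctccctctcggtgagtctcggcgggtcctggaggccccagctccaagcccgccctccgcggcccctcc
Cish held 2 matches, TTCCTGGAA at 0 to 8 and TTCTTGGAA at 11 to 19, where 0 is the first base after the start, and both overlap matches to GGAAA. Socs3 held 1, TTCTTAGAA at -154 to -146. Of 32851 promoters of this length, 8.30% held at least 1 match and 0.457% held 2 or more. A match describes these letters and does not show binding in these cells.

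Over the 7 genes together, 1 was called in Th1 cultures (Il2, higher under PBAB), against 14.6% of all genes tested (5.22% higher and 9.40% lower). In Th9 cultures 1 was called (Il2ra, higher by the probe set used), against 13.7% (7.39% higher and 6.32% lower). In Th17 cultures 2 were called (Il2ra higher by the probe set used, Il2 lower), against 17.1% (6.66% higher and 10.4% lower). In the average 1 was called (Il2ra, higher by that probe set and lower by the other), against 30.6% (13.2% higher and 17.3% lower), so the share of the 7 was near or below the background in the Th1, Th9 and averaged comparisons. The median over the 7 genes was -0.32 in Th1, 0.05 in Th9 and 0.65 in Th17 cultures, against 0.03, 0.01 and -0.0021 over all tested genes. With the replicate block 4 genes were called in Th1 cultures, against 28.3% of all genes tested, 3 in Th9 cultures, against 26.2%, 5 in Th17 cultures, against 30.4%, and 6 in the average, against 42.2%.

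For the difference between cultures, the F test called 2 of the 7 genes (Il2 and Il2ra), against 4.19% of all genes tested. Of the pairwise values, Th9 minus Th1 called 1 (Il2), against 1.37%, Th17 minus Th1 called 2 (Il2 and Il2ra), against 3.53%, and Th17 minus Th9 called 1 (Il2), against 1.71%. Between lineages under PBAB, 1 was called in Th9 minus Th1 (Il2), against 2.16%, 2 in Th17 minus Th1 (Il2 and Socs3), against 6.99%, and 1 in Th17 minus Th9 (Socs3), against 6.37%. Under HA, 1 was called in Th9 minus Th1 (Il2ra), against 5.34%, 1 in Th17 minus Th1 (Il2), against 6.90%, and 1 in Th17 minus Th9 (Il2), against 4.77%. With the replicate block the F test called 4, against 14.9% of all genes tested, and Il2rb and Socs3 joined at adjusted p = 0.000308 and 0.00580. Of the pairwise values the block called 3 for Th9 minus Th1, against 4.77%, 4 for Th17 minus Th1, against 11.8%, and 3 for Th17 minus Th9, against 9.52%. Between lineages under PBAB it called 2 in Th9 minus Th1, against 5.56%, 5 in Th17 minus Th1, against 17.0%, and 1 in Th17 minus Th9, against 15.2%. Under HA it called 1 in Th9 minus Th1, against 12.0%, 4 in Th17 minus Th1, against 15.3%, and 3 in Th17 minus Th9, against 11.8%. With so few genes these shares are not precise, and they are given as a description.

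**Figure D3:**
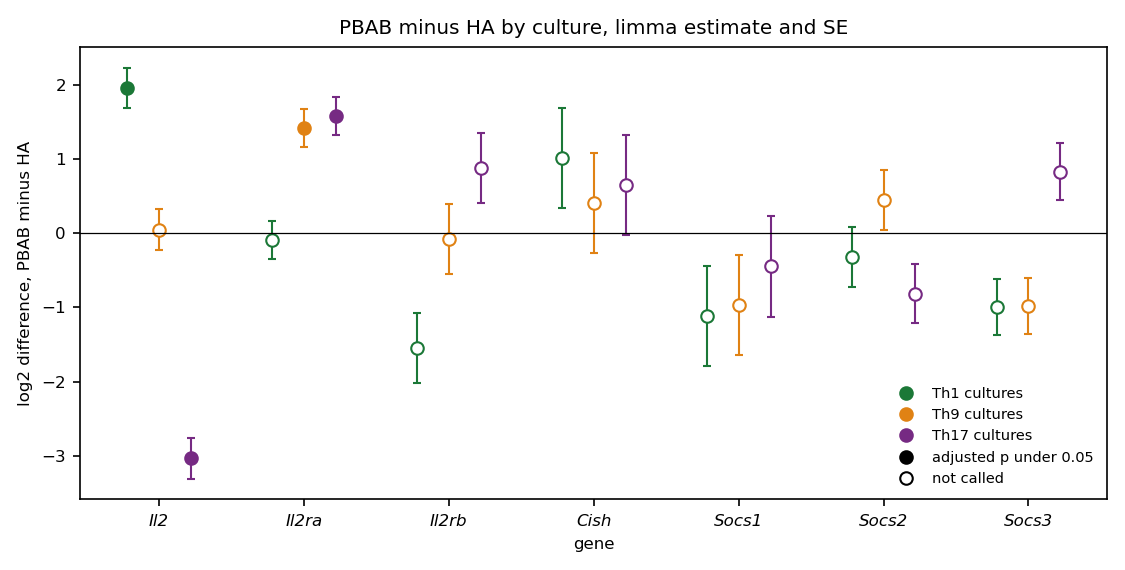
PBAB minus HA for each of the 7 genes (horizontal axis) in Th1 (green), Th9 (orange) and Th17 (purple) cultures, on the log2 scale (vertical axis), as the limma estimate with bars of 1 SE. Filled points were called without the replicate block. Il2 lies at 1.96 in Th1 and -3.03 in Th17 cultures, and Il2ra is drawn for the probe set used.

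Compared with APC alone, all 7 genes were called under both activations, where 89.8% (PBAB) and 90.7% (HA) of all genes tested were called as well. APC alone had 1 array per culture, each assumed to vary like the other groups. What these samples contained is not stated, so the differences cannot be read as changes within T cells. Technical values stood apart as well. The difference between the 3′ and 5′ actin probe sets was 0.05 to 0.28 on activated arrays and 0.74 to 0.99 in APC alone, and the bioB hybridisation control was 9.08 to 11.09 on activated arrays and 13.69 to 14.05 in APC alone. The 18S control was 9.27 to 11.45 on activated arrays and 8.60 to 8.82 in APC alone, and the interquartile range of an array's values was 3.02 to 3.48 on activated arrays and 2.02 to 2.09 in APC alone. The part of these in the differences was not tested. By the probe sets used, Il2 was the only one of the 7 whose averaged difference was negative, with APC alone at 5.76 in Th1, 5.39 in Th9 and 6.17 in Th17 cultures. The 2 activated groups with Il2 above the threshold lay above the APC alone array of their culture, and the other 4 lay below it. The averaged difference was -0.82 under PBAB (adjusted p = 0.00206) and -0.47 under HA (adjusted p = 0.0374, a call lost in 5 alternatives). Il2ra was higher by 4.26 under PBAB and 3.29 under HA, with APC alone at 7.19, 7.18 and 8.12 in the order Th1, Th9 and Th17. In APC alone, Socs1 was at 4.79, 5.44 and 5.44 and Socs3 at 5.77, 4.70 and 6.60, where 4.79 and 4.70 lay below the threshold. On every activated array Socs1 lay above 7 and Socs3 above 9. The other probe sets of Socs3 had 6.79, 6.61 and 6.35, and 5.66, 5.22 and 5.58, in APC alone.

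Il2rb had 8.67, 8.95 and 8.58 in APC alone, Cish 8.32, 8.82 and 8.79, and Socs2 8.42, 9.38 and 9.24. The direction of Il2rb and Socs2 depended on the scaling. The interquartile range differed between activated arrays and APC alone, as given above, so the deposited arrays did not share the same distribution. After all 15 arrays were quantile normalized together, PBAB minus APC alone was -0.49 for Il2rb and -0.80 for Socs2. HA minus APC alone was then -0.32 and -0.62. With that scaling Cish was at 0.57 in HA minus APC alone (adjusted p = 0.267), against 2.55 without it, and Il2 was at -0.16 (adjusted p = 0.360). Without it, 4 of the 5 other probe sets of Socs2 had lower values under both activations. Of these, 1 was not called, at -0.19 under HA (adjusted p = 0.575) and -0.16 under PBAB (adjusted p = 0.636). Another lay below the threshold in every activated group. The other probe set of Il2rb was higher than in APC alone by 4.08 under PBAB and 4.32 under HA, against 1.45 and 1.70 for the probe set used. The median of all tested genes was itself shifted, by 0.31 under PBAB and 0.36 under HA.

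Defining markers of T cells were present on every activated array, and the mean over 10 such genes was 10.996 to 11.27 under PBAB, 10.62 to 11.33 under HA and 6.76 to 7.98 in APC alone. The mean over 11 macrophage and monocyte markers was 4.91 to 5.38 under PBAB, 5.03 to 6.70 under HA and 9.29 to 9.68 in APC alone. Of these 11, 6 were lower under PBAB than HA in Th17 cultures, against 10.4% of all genes tested. In Th9 cultures 3 were lower and 1 higher, against 6.32% and 7.39%, and in Th1 cultures 0 were lower, against 9.40%. In the average 7 were lower and 1 higher, against 17.3% and 13.2%. The log2 of their summed level was 8.70 to 9.76 under PBAB, 8.65 to 11.51 under HA and 14.37 to 14.85 in APC alone. C1qb, C1qc, Adgre1 and Mrc1 were below the threshold under both activations, and Cd14 was so under PBAB. Thus 6 of the 11 were higher under HA in Th17 cultures, where Il2 was also higher. In Th1 cultures, where Il2 was higher under PBAB, 1 of the 11 was called higher under PBAB, Cd68 at 2.06 ± 0.39 (adjusted p = 0.00580), and none lower, with Lyz2 at -1.22 (adjusted p = 0.0657). The part of these markers in the Il2 results was not tested.

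Of 9 B cell markers none was called in the average by limma, against 30.6% of all genes tested. Of these 9, 5 were below the threshold under PBAB and 4 under HA. Both CD8 markers, Cd8a and Cd8b1, were lower under PBAB in the average, against 17.3% of all genes tested. Their means were 5.71 to 7.92 under PBAB and 7.31 to 8.87 under HA. Regulatory T cells are known to carry the alpha chain, but their part in the Il2ra signal was not tested. Of their markers, 6 were among the genes tested. In the average 1 was higher and 2 were lower under PBAB, against 13.2% and 17.3% of all genes tested. With the replicate block 2 were higher and 3 lower, where 42.2% of all genes tested were called. Itgae, an integrin of regulatory and tissue T cells, was lower, at -2.47 ± 0.19 (adjusted p = 9.32e-06), and Ikzf2 was higher by 1.49 ± 0.20 (adjusted p = 0.000284).

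The wider pathway was described with 8 lists holding 73 genes, of which 65 were tested, for PBAB minus HA averaged over the cultures. Of 10 JAK kinases and STAT factors, 3 were higher and 1 was lower, and 6 were not called. Stat5b, a carrier of the IL-2 signal, was higher by 0.64 ± 0.12 (adjusted p = 0.00229), and Jak1, the kinase bound to the beta chain, was lower, at -0.71 ± 0.12 (adjusted p = 0.000954). Stat3 and Stat5a were the other two higher genes, at 0.72 (adjusted p = 0.00755) and 1.18 (adjusted p = 0.0139). Of 10 other SOCS genes and phosphatases, 2 were higher and 1 was lower. Ptpn6, a phosphatase that dephosphorylates receptor complexes, was higher by 0.67 (adjusted p = 0.00227), and Pias1, an inhibitor of STAT factors, was lower, at -0.26 (adjusted p = 0.0367).

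Genes downstream of IL-2 were called in both directions. Of 16 genes known to be induced through STAT5, 6 were higher and 3 were lower under PBAB, with a median of 0.13, against 0.02 over all genes tested. Tnfrsf4, the costimulatory receptor OX40, was higher by 0.94 ± 0.14 (adjusted p = 0.000609). Prdm1, the repressor Blimp-1, was lower, at -2.05 ± 0.19 (adjusted p = 3.44e-05). Of 4 genes known to be repressed by IL-2 and STAT5, 1 was higher and 3 were lower. Il7r, the alpha chain of the IL-7 receptor, was lower, at -1.19 ± 0.17 (adjusted p = 0.000406), and Il6ra, the IL-6 receptor alpha chain, was higher by 0.64 (adjusted p = 0.00839).

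Transcription factors that act on the Il2 gene also went both ways, with 3 of 13 higher and 5 lower. Prdm1, which represses Il2 and belongs to this list as well, has been given above. Nfatc2, an NFAT factor that activates Il2, was lower, at -1.01 ± 0.11 (adjusted p = 7.43e-05). In Th1 cultures, where Il2 was higher under PBAB, 1 of the 13 was higher and 3 were lower, beside 5.22% and 9.40% over all genes tested. There Prdm1 was lower, at -2.64 ± 0.34 (adjusted p = 0.000703) and Nfatc2 at -1.54 ± 0.19 (adjusted p = 0.000573). In Th17 cultures, where Il2 was lower under PBAB, 2 were higher and 2 lower, beside 6.66% and 10.4%. The lower genes were again Prdm1, at -1.34 (adjusted p = 0.0208), and Nfatc2, at -0.70 (adjusted p = 0.0284). The smallest p values there were those of Crem, a repressor of Il2, which was higher under PBAB by 2.54 ± 0.43 (adjusted p = 0.00300), and Zeb1, another repressor of Il2, which was higher by 1.41 ± 0.25 (adjusted p = 0.00355). The difference of differences called 1 of the 13 for Th17 minus Th1, against 3.53% of all genes tested, and 0 for Th17 minus Th9, against 1.71%. The part of these factors in the Il2 differences was not tested.

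Among receptors, 1 of 4 other chains of this receptor family was higher and 1 lower, namely Il15ra, the alpha chain for IL-15, at 0.62 (adjusted p = 0.00139), and Il7r. Of 9 receptors for the polarizing cytokines, 3 were higher and 4 lower. Il1r1, the receptor for IL-1, was lower, at -1.33 ± 0.14 (adjusted p = 5.04e-05), and Tgfbr2, a TGF-beta receptor chain, at -1.15 ± 0.13 (adjusted p = 7.84e-05). Of 3 other cytokines that use the gamma chain, 1 was higher, Il21 at 0.66 ± 0.23 (adjusted p = 0.0471), while Il4 was at 0.11 (adjusted p = 0.503). Across the 8 lists the called shares stand beside 13.2% higher and 17.3% lower over all genes tested. In the blocked fit, where 42.2% of all genes tested were called, 5 JAK and STAT genes, 4 SOCS genes and phosphatases, 10 genes induced through STAT5, 10 factors of the Il2 gene and 8 polarizing receptors were called.

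Replicate numbers 1 and 2 differed in 6 of the 7 genes, where 29.3% of all genes tested were called in the same comparison. Socs1 was lower in replicate 2 by -1.14 ± 0.16 (adjusted p = 0.000607), Cish at -1.03 ± 0.22 (adjusted p = 0.00585) and Il2rb at -0.81 ± 0.09 (adjusted p = 0.000186). Socs2 and Socs3 were each lower, at -0.54 (adjusted p = 0.0240 and 0.0138), and Il2 was higher by 0.41 (adjusted p = 0.00499). Since Il2 lay below the threshold in 4 of the 6 activated groups, its value rests mostly on signals not told from background. Il2ra was at 0.15 (adjusted p = 0.412) with the probe set used, while the other probe set was lower in replicate 2 in 6 of 6 groups, by -1.47 to -0.47. Cish (-2.45 to -0.37), Socs1 (-2.01 to -0.54), Il2rb (-1.04 to -0.51) and Socs3 (-1.11 to -0.10) were lower in 6 of 6 groups too. The 18S ribosomal control was lower in replicate 2 in 6 of 6 groups, by -1.61 to -0.82, and the bioB hybridisation control was higher in 6 of 6, by 1.02 to 1.86. The part of these controls in the differences was not tested.

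**Figure D4:**
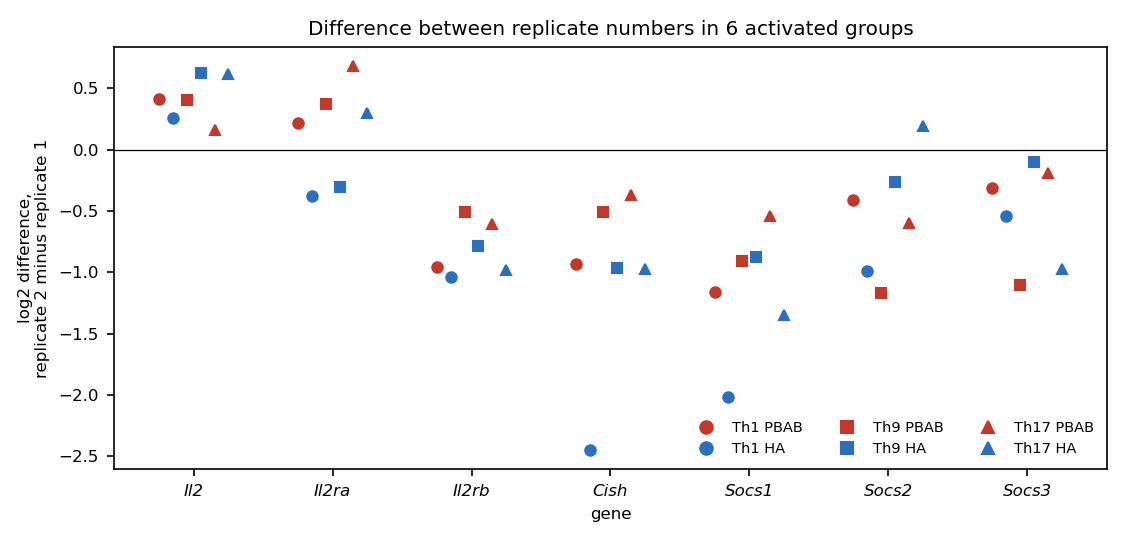
Replicate 2 minus replicate 1 in each of the 6 activated groups (vertical axis, log2 difference) for each of the 7 genes (horizontal axis). Red is PBAB and blue HA, and circles, squares and triangles are Th1, Th9 and Th17 cultures. All 6 points of Cish, Socs1, Il2rb and Socs3 lie below 0 and all 6 of Il2 lie above it.

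The genes most like the 2 members with the widest spans were found over the 12 activated arrays, as those with the smallest root mean square difference after centring each gene. For Il2 they were Slc34a3 (0.659), Slc2a2 (0.677) and Fpr2 (0.690). Slc34a3 and Slc2a2 had means of 6.25 and 6.0 in Th17 HA and lay below the threshold in the other 5 activated groups. Fpr2, a formyl peptide receptor of myeloid cells, had 7.21 in Th17 HA, between 5.14 and 5.55 in the other 5, and 7.07 to 7.78 in APC alone. For Socs3 the genes were Vwa5a (0.435), Vsir (0.444) and Il17ra (0.447), the last a chain of the IL-17 receptor. All 3 were highest in Th17 PBAB or Th1 HA, the 2 groups in which Socs3 was highest.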

How the data were processed

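Gene expression was measured on 15 arrays from 500 ng of total RNA per sample. The authors deposited log2 expression values of 45101 probe sets, made with RMA per the submitters' processing notes, whose version the sources used here do not give. Base 2 was inferred from values between 2.10 and 15.05, and no further scaling was applied.

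Names came from a 2016 annotation of the platform, in which 34958 had 1 symbol, 932 had several and 9211 were unnamed here, and Il2rg was not analysed here. A gene took the values of its brightest probe set on average, and was tested if these were above 5.07, the 40th percentile of the whole table, on 2 or more arrays. limma (version 3.58.1, R 4.3.3) was fitted with 1 mean per group to all 15 arrays (6 residual and 4.38 prior degrees of freedom), with Benjamini-Hochberg adjustment over all genes tested. The fit was tested on simulated data. The number of arrays limits the precision.

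Over 15 pairs of activated groups, deviations of arrays with the same replicate number from their group means had correlations over genes between 0.296 and 0.708, with a median of 0.484, so all were over 0.1. The numbers in the labels were therefore taken to mark pairs, and a fit to the 12 activated arrays that takes the number as a block was run beside it. Genes named besides the 8 were the 2 with the smallest p of a list, or the 3 most alike to a gene whose activated means spanned at least 2. Stat3 and Stat5a were named after their values were seen, as were the other markers given by name. The genes and lists were chosen with earlier results of these data known, and the comparison of replicate numbers and the blocked fit of the other probe sets of Il2ra and Socs2 were added after seeing the data. In the pathway lists Tcf7, Nfkb1 and Pou2f1 were not analysed here. Alternatives were no filter, the mean of all probe sets, quantile normalization of all 15 arrays together and subtraction of array medians. Others were array weights, an intensity trend, fewer arrays and each array left out in turn. Promoters came from RefSeq, which held 6 of the 8 genes.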

Additional observations from a re-analysis of the deposited data

Results flagged for a closer look

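The difference between activations depended on the culture for Il2 and, by the probe set used, for Il2ra, by tests of the difference itself (limma, adjusted p as given above). For Il2, PBAB minus HA in Th17 minus that in Th1 cultures was -5.00, in Th17 minus that in Th9 cultures -3.08, and in Th9 minus that in Th1 cultures -1.91. For Il2ra it was 1.68 in Th17 minus that in Th1 cultures. The called Il2 values rest on 2 groups, Th1 PBAB and Th17 HA, with signal above the threshold. Groups of 2 arrays are too small for a test of single outlying arrays.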

How the results depend on the processing

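Of 91 results of the 7 genes among activated arrays, 16 were called without and 44 with the replicate block. All 16 stayed called, and 28 were called with the block only. More of all genes tested were called with the block too, as in Th1 cultures, with 28.3% against 14.6% without it. The counts of genes called with the block were 4 in Th1, 3 in Th9 and 5 in Th17 cultures, 6 in the average and 4 by the F test. They were 2 for Th9 minus Th1 and 5 for Th17 minus Th1 under PBAB, and 4 for Th17 minus Th1 and 3 for Th17 minus Th9 under HA. The mean of all probe sets gave counts of 2 in Th1, 0 in Th9, 1 in Th17 cultures and 0 in the average, 1 by the F test, 1 for Th17 minus Th1 under PBAB and 0 for Th9 minus Th1 under HA. Array weights and an intensity trend each gave 2 in Th1 cultures. Quantile normalization of all 15 arrays together gave 2 for Th17 minus Th1 under HA and 4 for HA minus APC alone. Shares over all genes tested are given above for the fits without and with the block. For the other settings, and for the fits below that left out an array, that share is not given. Their counts are therefore not read as a change particular to the 7 genes.

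Leaving out each of the 12 activated arrays in turn gave 1 to 2 genes called in Th1 and in Th9 cultures, in the average, by the F test and for Th17 minus Th1 under PBAB. It gave 1 to 3 for Th17 minus Th1 under HA, 0 to 1 for Th9 minus Th1 under HA and 0 to 1 for Th9 minus Th1 under PBAB. The Il2 differences in Th1 (1.76 to 2.17) and Th17 cultures (-3.34 to -2.73) were called in all 12.

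Directions reversed mostly with the probe set. The Il2ra average was -0.10 with the mean of both and -1.18 with the other probe set, which gave -0.65 in Th17 and -0.79 in Th9 cultures, both called with the block only. For Socs2 another probe set gave 0.78 in the average and, with the block, a called 0.94 in Th17 cultures. Of the probe sets not used, 4, that one among them, gave HA minus APC alone of -1.29, -0.19, -2.01 and -1.49. For these 4, PBAB minus APC alone was -1.05, -0.16, -1.23 and -1.39, and the values -0.19 and -0.16 were not called. After quantile normalization of all 15 arrays together, HA and PBAB minus APC alone were -0.32 and -0.49 for Il2rb and -0.62 and -0.80 for Socs2. The cause was not tested. No detection calls were used, so Il2 below the threshold has no measured level.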
